A study of Mus musculus with 18 samples.

Results

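Msln, Upk1b, Upk3b, Muc16, Wt1, Lrrn4, Krt19 and Gpm6a are genes by which mesothelium is recognised in mouse tissue. They were chosen by name from the 55414 gene identifiers of the deposited count table. All 8 matched 1 row each through their Ensembl identifiers in GENCODE M21. Polyadenylated RNA came from wild type C57BL/6J mice that had breathed PM2.5, which are fine airborne particles, or filtered air for 30 days. Whole spleens formed the first experiment, with 4 PM2.5 libraries and 4 air libraries. Macrophages isolated from the spleen formed the second, with 5 PM2.5 libraries and 5 air libraries. The labels of the second experiment also name filtered air following the exposure, with no separate length for it, so the macrophage groups may include a stay in filtered air. They give neither the age or sex of the mice nor the isolation method, and do not say whether a library is 1 animal.

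Libraries held between 18427891 and 19906706 counts in PM2.5 spleens and between 16493694 and 20352346 in air spleens. They held between 18848048 and 33844807 counts in PM2.5 macrophages and between 18107264 and 29013034 in air macrophages. Titles give the PM2.5 libraries as CAP, and the treatment tag of macrophage PM2.5 replicate 1 reads air against its title and description. The macrophage label was checked on Vcam1, an adhesion molecule that red pulp macrophages carry, on CPM, in which a gene's count is set against its library's scaled total, here with all 18 libraries scaled together. Vcam1 had 5680 ± 669 CPM in PM2.5 macrophages and 5968 ± 758 CPM in air macrophages (SD, n = 5 each), against 177 ± 22.7 CPM in PM2.5 spleens and 124 ± 40.3 CPM in air spleens (SD, n = 4 each).

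Mesothelium is the single layer of flat cells that covers the abdominal organs and lines the body cavity, and on the spleen it overlies the fibrous capsule. Its cells make a slippery surface coat of glycoproteins and mucins, are joined by cadherins and carry simple-epithelial keratins. They arise from mesoderm that expresses the transcription factor Wt1, and in the adult they keep Wt1. Cells of this kind are few in a whole spleen beside the lymphocytes, and macrophages are not known to make the surface proteins.

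All 8 genes had higher mean levels in PM2.5 spleens than in air spleens, and 51.8% of all tested genes had a log2 fold change above 0. Their summed level was 133 ± 113 CPM in PM2.5 spleens and 5.83 ± 1.39 CPM in air spleens (SD, n = 4 each), a 22.8-fold ratio of means. By library, the sum was 46.1, 50.7, 149 and 287 CPM in PM2.5 replicates 1, 2, 3 and 4, against 6.51, 7.06, 5.87 and 3.87 CPM in air replicates 1, 2, 3 and 4. The groups did not overlap, and the lowest PM2.5 library was 6.52-fold above the highest air library. At an adjusted p of 0.05 edgeR called 0 of the 8 genes, while 0.0121% of 16551 tested genes passed in the same fit. The adjusted p of the 8 lay between 0.0613 and 0.124. All 8 had an unadjusted p under 0.05 with the higher level in PM2.5, as did 8.93% of all tested genes. DESeq2 called all 8 (3.28% of all genes tested were called higher) and limma-voom called 0. In bulk RNA, more cells of a type and more RNA per cell cannot be told apart.

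**Figure D1:**
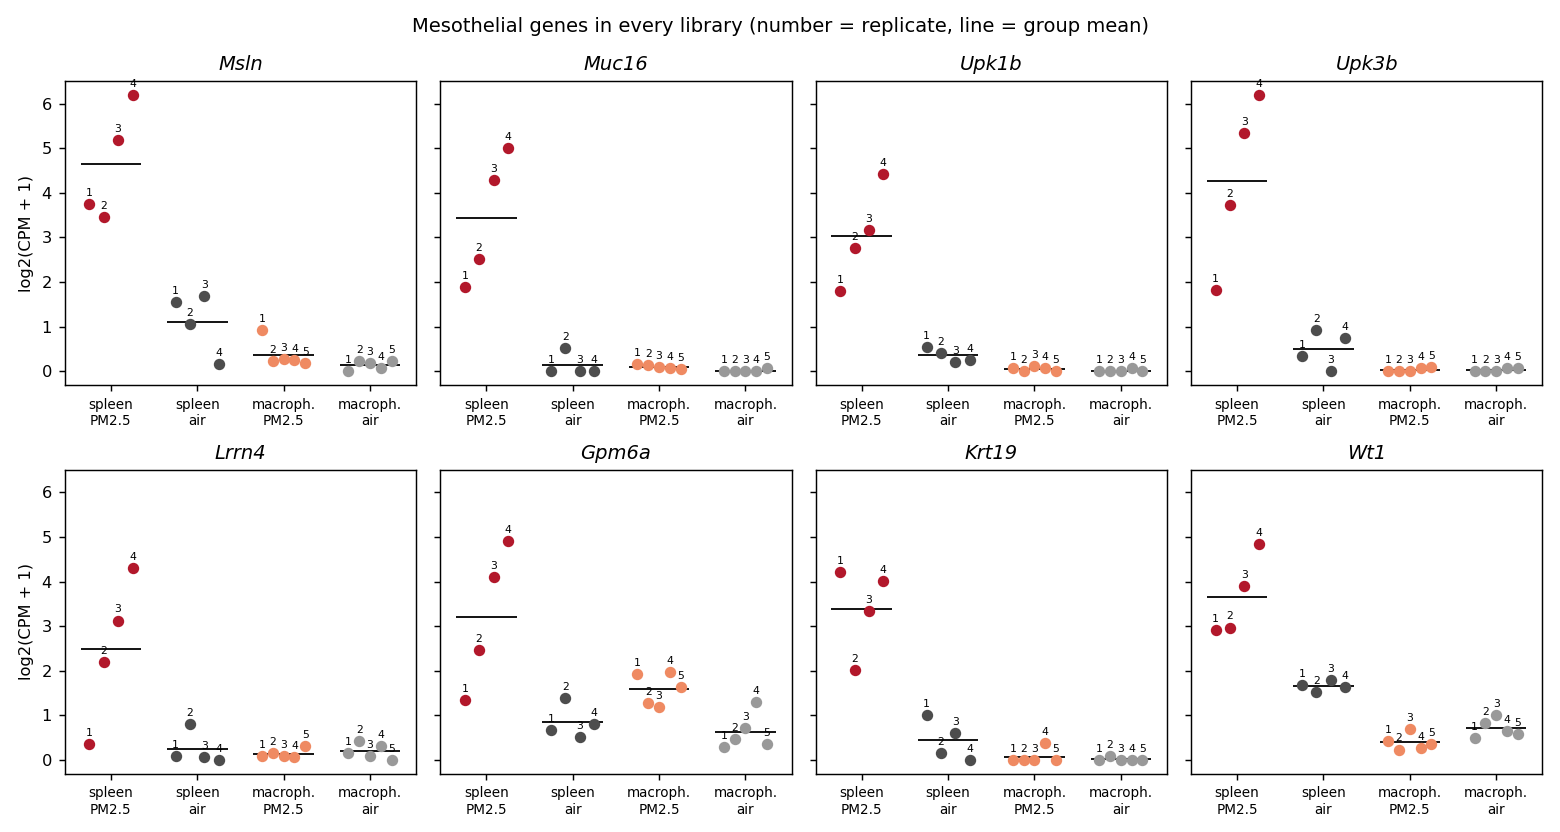
Level of each gene in every library as log2(CPM + 1), scaled within each experiment; each point is 1 library with its replicate number, and the line is the group mean. All 8 genes have their highest library among the PM2.5 spleens, which is replicate 4 for 7 genes and replicate 1 for Krt19.

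Of the 8 genes, 1 would have passed the filter on low counts through the air spleens alone, namely Wt1. The other 7 needed counts in PM2.5 spleens to pass, which favours genes that are higher there. Lrrn4 passed with 3 PM2.5 libraries and 1 air library above the minimum, and Msln and Gpm6a each had 3 air libraries above it. The counts over the 8 genes are therefore a description. The groups did not overlap for 6 of the 8 genes, against 4.41% of all tested genes with PM2.5 as the higher group and 4.54% with PM2.5 as the lower group. Lrrn4 and Gpm6a overlapped, in each case through PM2.5 replicate 1. The median log2 fold change of the 8, PM2.5 minus air, was 4.89, against 0.017 over all tested genes.

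The sequences before the start sites are shown for the genes with an entry in RefSeq's table on GRCm38.p6, since most of the 8 genes varied together across libraries. Of the 8 genes, 4 had an entry, each a window of 250 bases before and 50 after a start. GGAATG is the core letters bound by TEAD factors, which act with the coactivators Yap1 and Wwtr1. On either strand it occurred in 14.7% of the 32851 windows of 300 bases in the table. One match each was found in the windows of Lrrn4 (chr2:132880813-132881112, minus strand), Upk3b (chr5:136038246-136038545, plus strand) and the upstream start of Gpm6a (chr8:54779184-54779483, plus strand). Muc16 (chr9:18674554-18674853, minus strand) had 0 matches, as had the second Gpm6a start. The sequences read 5′ to 3′ on the gene's strand, with capitals at GGAATG or its reverse complement.
Lrrn4: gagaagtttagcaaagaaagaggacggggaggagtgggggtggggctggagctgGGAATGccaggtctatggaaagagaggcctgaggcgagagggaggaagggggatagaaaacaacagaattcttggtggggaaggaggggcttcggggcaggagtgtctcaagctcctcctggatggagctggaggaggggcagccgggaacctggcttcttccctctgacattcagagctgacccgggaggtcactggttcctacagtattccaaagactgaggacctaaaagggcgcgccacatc
Upk3b: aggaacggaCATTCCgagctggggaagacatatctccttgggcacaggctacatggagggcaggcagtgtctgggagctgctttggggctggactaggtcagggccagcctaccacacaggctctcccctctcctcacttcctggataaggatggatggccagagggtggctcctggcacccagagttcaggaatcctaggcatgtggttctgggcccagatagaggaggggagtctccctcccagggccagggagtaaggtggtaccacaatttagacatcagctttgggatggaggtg
Gpm6a: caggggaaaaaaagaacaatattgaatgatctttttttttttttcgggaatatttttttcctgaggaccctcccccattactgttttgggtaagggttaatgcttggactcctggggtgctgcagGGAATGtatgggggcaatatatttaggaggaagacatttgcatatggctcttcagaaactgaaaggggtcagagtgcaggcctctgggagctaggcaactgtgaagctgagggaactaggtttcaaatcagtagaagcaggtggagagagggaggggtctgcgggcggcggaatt
Muc16: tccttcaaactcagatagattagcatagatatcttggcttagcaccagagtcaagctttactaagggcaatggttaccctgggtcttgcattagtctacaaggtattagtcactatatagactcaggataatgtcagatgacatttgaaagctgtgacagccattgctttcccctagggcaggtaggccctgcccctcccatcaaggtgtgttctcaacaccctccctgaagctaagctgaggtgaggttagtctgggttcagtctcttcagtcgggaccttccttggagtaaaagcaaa
The matches began at positions -196 in Lrrn4, -241 in Upk3b and -125 in Gpm6a, counted from the start site. The letters GNGTGGGNG, a GC-rich site of the kind WT1 and EGR factors bind, occurred in 14.3% of all windows and, among these 5, once, in Lrrn4, where it does not overlap the TEAD letters. The letters of the TATA box, TATAAA, occurred on either strand in 13.6% of all windows. Among these 5 they occurred in the window of the second Gpm6a start, only as the reverse complement, on the strand opposite to the gene. The Gpm6a gene of GENCODE M21 starts near the second window (chr8:54954478-54954777, plus strand), which had 0 matches to GGAATG. The Gpm6a sequence printed is that of the upstream start, outside that gene. A match says that the letters are present and no more.

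The surface glycoproteins come first. Msln (ENSMUSG00000063011, GRCm38 chromosome 17, 25748613 to 25754378, minus strand) encodes mesothelin, a protein held to the membrane by a lipid anchor. It had 268, 183, 713 and 1399 counts in PM2.5 spleens 1 to 4, against 29, 20, 42 and 2 in air spleens 1 to 4. Every PM2.5 library was above every air library. Msln averaged 32.5 ± 28.7 CPM in PM2.5 and 1.34 ± 0.943 CPM in air spleens (SD, n = 4 each; log2 fold change 4.59, SE 0.774, edgeR adjusted p = 0.0845). Air replicate 4, the lowest library for Msln, had 0.125 CPM.

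Muc16 (ENSMUSG00000109564, chromosome 9, 18495455 to 18674530, minus strand) encodes a very large membrane mucin, known in humans as the antigen CA-125, which binds mesothelin. It had 58, 87, 376 and 608 counts in PM2.5 spleens 1 to 4, against 0, 8, 0 and 0 in air spleens 1 to 4. The air counts lay in a single library, replicate 2, and a count of 0 allows up to 3 counts. Muc16 averaged 14.3 ± 13.3 CPM in PM2.5 and 0.107 ± 0.214 CPM in air spleens (SD, n = 4 each; log2 fold change 6.89, SE 1.12, edgeR adjusted p = 0.0845). That fold change rests on air replicate 2: without it the fitted value was 11.05 (edgeR adjusted p = 0.0413), against an air group wholly at 0, where the value depends on the prior count and is no bound.

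The uroplakins were named for the plaques of the bladder lining, and Upk1b and Upk3b are also made by mesothelium. Upk1b (ENSMUSG00000049436, chromosome 16, 38773184 to 38800328, minus strand) encodes a tetraspanin and had 53, 106, 161 and 397 counts in PM2.5 spleens 1 to 4, against 7, 6, 3 and 3 in air spleens 1 to 4. The air libraries were all low and close together. Upk1b had the smallest p of the 8 genes, with 9.17 ± 7.84 CPM in PM2.5 and 0.283 ± 0.14 CPM in air spleens (SD, n = 4 each; log2 fold change 5.003, SE 0.693, edgeR adjusted p = 0.0613). By p it had rank 4 among all tested genes.

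Upk3b (ENSMUSG00000042985, chromosome 5, 136038496 to 136046487, plus strand) encodes a membrane protein that spans the membrane once. It had 54, 224, 804 and 1407 counts in PM2.5 spleens 1 to 4, against 4, 17, 0 and 11 in air spleens 1 to 4. The PM2.5 libraries spread 28.7-fold in CPM, and the lowest was still 2.78-fold above the highest air library. Upk3b averaged 31.7 ± 31.4 CPM in PM2.5 and 0.465 ± 0.409 CPM in air spleens (SD, n = 4 each; log2 fold change 6.07, SE 1.06, edgeR adjusted p = 0.0877).

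Lrrn4 (ENSMUSG00000043110, chromosome 2, 132868305 to 132880891, minus strand) encodes a leucine-rich repeat membrane protein, studied in mouse neurons and used as a mesothelial marker. It had 6, 65, 156 and 362 counts in PM2.5 spleens 1 to 4, against 1, 14, 1 and 0 in air spleens 1 to 4. The groups overlapped, since PM2.5 replicate 1 (0.281 CPM) lay under air replicate 2 (0.749 CPM). Lrrn4 averaged 7.55 ± 7.99 CPM in PM2.5 and 0.217 ± 0.356 CPM in air spleens (SD, n = 4 each; log2 fold change 5.02, SE 1.22, edgeR adjusted p = 0.124).

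Gpm6a (ENSMUSG00000031517, chromosome 8, 54954843 to 55060871, plus strand) encodes a membrane glycoprotein of the proteolipid family that is best known from neurons. It had 33, 82, 324 and 567 counts in PM2.5 spleens 1 to 4, against 9, 30, 8 and 12 in air spleens 1 to 4. PM2.5 replicate 1 (1.54 CPM) lay just under air replicate 2 (1.60 CPM), and the other PM2.5 libraries lay above all air libraries. Gpm6a averaged 12.8 ± 12.6 CPM in PM2.5 and 0.843 ± 0.525 CPM in air spleens (SD, n = 4 each; log2 fold change 3.90, SE 0.831, edgeR adjusted p = 0.11).

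Krt19 (ENSMUSG00000020911, chromosome 11, 100140810 to 100148665, minus strand) encodes a keratin of simple epithelia and of mesothelium. It had 373, 56, 185 and 292 counts in PM2.5 spleens 1 to 4, against 15, 2, 10 and 0 in air spleens 1 to 4. Here replicate 1 was the highest PM2.5 library, unlike for the other 7 genes. Krt19 averaged 11.2 ± 6.43 CPM in PM2.5 and 0.408 ± 0.454 CPM in air spleens (SD, n = 4 each; log2 fold change 4.78, SE 0.817, edgeR adjusted p = 0.0845).

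Wt1 (ENSMUSG00000016458, chromosome 2, 105126529 to 105173616, plus strand) encodes the zinc finger factor that is needed for the spleen to form in the mouse embryo. It had 140, 125, 282 and 541 counts in PM2.5 spleens 1 to 4, against 33, 35, 47 and 34 in air spleens 1 to 4. It was the gene of the 8 with the highest mean and the narrowest relative spread in air. Wt1 averaged 13.8 ± 9.97 CPM in PM2.5 and 2.17 ± 0.252 CPM in air spleens (SD, n = 4 each; log2 fold change 2.67, SE 0.458, edgeR adjusted p = 0.0845). Its ratio of means, 6.36, was the smallest of the 8. Wt1os, which is transcribed from the opposite strand beside Wt1, had 57 counts over the PM2.5 spleens and 11 over the air spleens. It shares no exonic base with Wt1 in GENCODE M21, and no other gene did so with any of the 8.

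Per kilobase of exon, the mean levels in PM2.5 spleens ran from Msln (10.6 ± 9.37 CPM per kb) and Upk3b (8.99 ± 8.88) through Krt19 (6.02 ± 3.46), Upk1b (4.39 ± 3.75), Gpm6a (3.98 ± 3.91), Wt1 (2.23 ± 1.61) and Lrrn4 (2.03 ± 2.15) to Muc16 (0.544 ± 0.506; SD, n = 4). Neighbours in that order did not differ beyond their spread. In air spleens the highest level per kilobase was that of Msln, at 0.436 ± 0.308 CPM per kb, followed by Wt1 at 0.35 ± 0.0407 CPM per kb (SD, n = 4 each). Muc16 was the lowest in both groups on this scale, where its long transcript lowers the value.

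**Figure D2:**
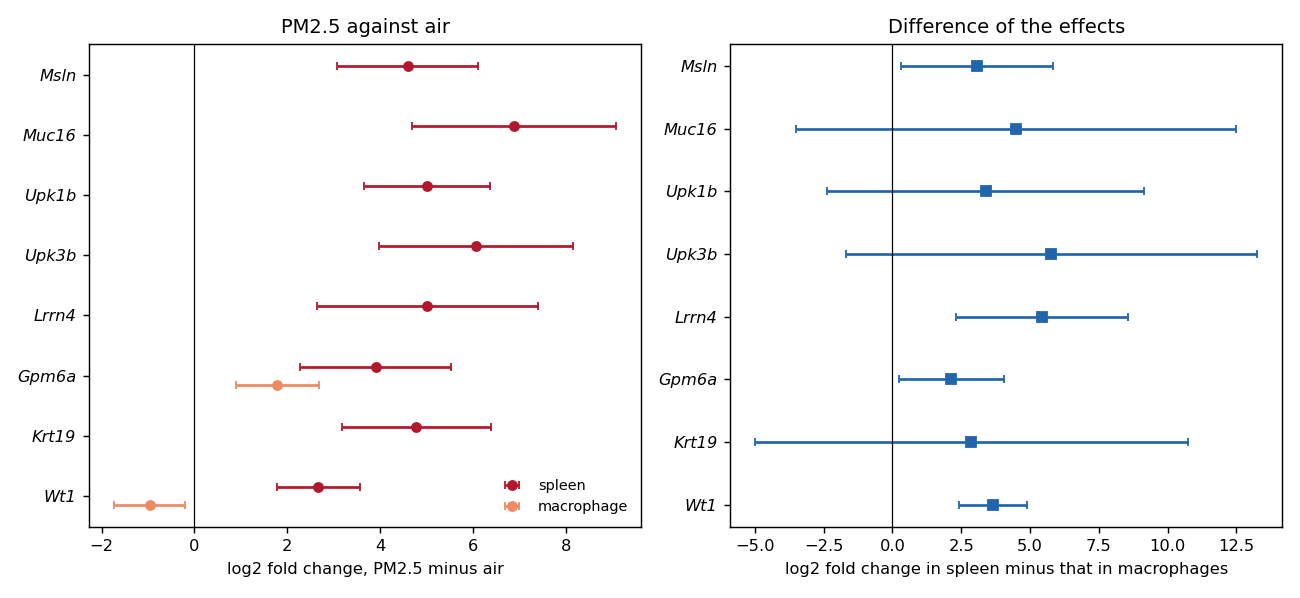
Left: log2 fold change, PM2.5 minus air, of each gene in spleen and, for the 2 genes tested there, in macrophages; right: the spleen value minus the macrophage value from the joint fit. Points are edgeR estimates and bars are approximate 95% intervals from their SE. All 8 spleen intervals lie above 0, although 0 genes passed after adjustment, and the widest intervals on the right belong to genes with few or no macrophage counts.

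The make-up of the summed counts differed between the PM2.5 spleens. In 6 of the 8 genes the libraries had the same order, with replicate 4 highest, then 3, 2 and 1. Msln was lowest in replicate 2 and Krt19 was highest in replicate 1. Upk3b, Msln and Krt19 took similar shares in replicates 2, 3 and 4. Upk3b made up 24.1%, 26.8% and 25.2% of their counts there and Msln 19.7%, 23.8% and 25.1%. Krt19 made up 6.03%, 6.17% and 5.24%. In replicate 1 Krt19 made up 37.9%, Upk3b 5.48% and Lrrn4 0.609%. For each count of Upk3b, replicate 1 held 6.91 counts of Krt19, and replicates 2, 3 and 4 held 0.25, 0.23 and 0.208. Replicate 1 thus stood apart from the others in which of the 8 genes it held.

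**Figure D3:**
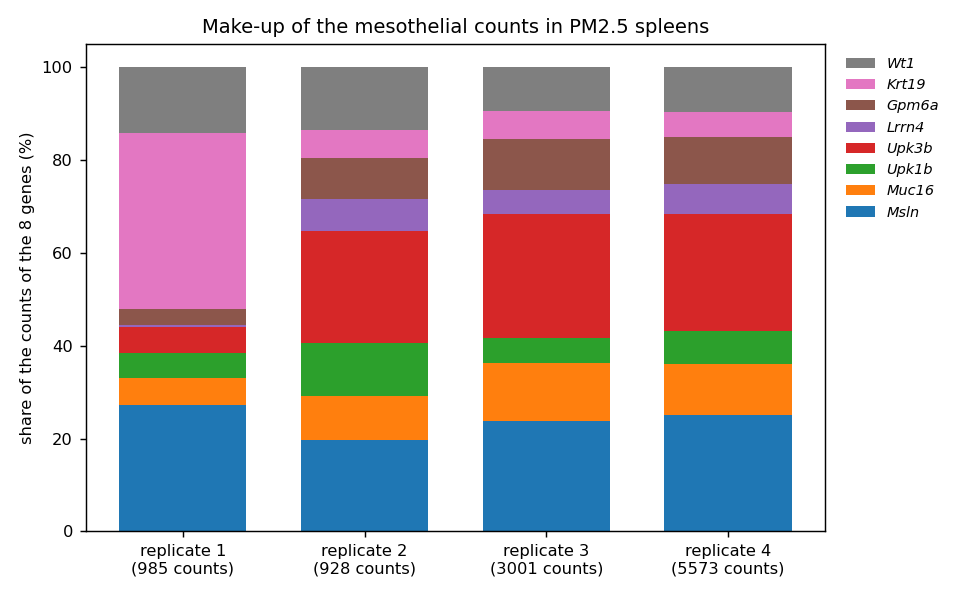
Share of each gene in the counts of the 8 genes, in percent, for the 4 PM2.5 spleens, with the summed counts under each bar. Upk3b, Msln and Krt19 have similar shares in replicates 2, 3 and 4, and in replicate 1 Krt19 takes 37.9% and Upk3b 5.48%.

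Some other genes of lining epithelia were high in PM2.5 replicate 1. They were picked after their values were seen, and other listed genes of epithelia were not high there. Krt20 and Lgals4 had 1.78 and 18.5 CPM in that library, against 3.10 to 5.51 and 19.8 to 27.3 CPM in air spleens. Krt14 had 0.514 CPM in PM2.5 replicate 1 and 1.98 CPM in PM2.5 replicate 3. Krt8 and Krt18, keratins that pair in simple epithelia, had 254 and 158 counts in PM2.5 replicate 1. In PM2.5 replicates 2, 3 and 4, Krt8 had 6, 70 and 72 counts and Krt18 28, 45 and 76. Krt15, a keratin of stratified epithelia, had 189 counts in replicate 1 and no more than 2 in any other spleen library. Muc1, a membrane mucin of glandular epithelia, had 179 counts in replicate 1 and no more than 33 in any other spleen library. Cdh1, E-cadherin, had 277 counts there and no more than 73 in the others. Bnc1, a transcription factor of mesothelium, had 2 counts in replicate 1 and 143 in replicate 4. Replicate 1 did not stand apart for Bnc1, which had 0.0935, 0.109, 1.93 and 7.36 CPM in PM2.5 spleens 1 to 4. In air spleens Bnc1 ran from 0 to 0.531 CPM. The part of these transcripts in the Krt19 value of replicate 1 was not tested. Without replicate 1 the Krt19 log2 fold change was 4.48 (edgeR adjusted p = 0.0494).

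Leaving out this library changed the calls. Without PM2.5 replicate 1 all 8 genes passed in edgeR, with adjusted p-values between 0.012 for Upk1b and 0.0494 for Krt19, while 136 genes passed in all. Without air replicate 2, which had the most Muc16, Lrrn4, Upk3b and Gpm6a CPM of the air spleens, 4 of the 8 passed, namely Upk1b, Muc16, Upk3b and Krt19, and 219 genes in all. Without any one of the other spleen libraries 0 of the 8 passed. Without PM2.5 replicate 4, the library with the highest summed level, the log2 fold change of Gpm6a was 3.11 (edgeR adjusted p = 0.276), that of Upk3b 5.27 (0.233) and that of Wt1 2.07 (0.195).

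A further list of 20 mesothelial genes, chosen with earlier results of these data known, was set beside the 8. Of 17 tested, 16 had a higher mean and 1 a lower mean in PM2.5 spleens, and their median log2 fold change was 3.29. In edgeR 0 passed, and 13 had an unadjusted p under 0.05, all higher. Cdh3, which encodes P-cadherin, averaged 3.26 ± 2.87 CPM in PM2.5 and 0.0433 ± 0.0527 CPM in air spleens (SD, n = 4 each; edgeR adjusted p = 0.0845). Efemp1, a secreted fibulin, averaged 20.8 ± 16.0 CPM in PM2.5 and 1.79 ± 1.10 CPM in air spleens (edgeR adjusted p = 0.0941). Both showed the same direction as the 8 genes, and so did Gas1 and Igfbp6. Gas1, a membrane protein that restrains growth, had a log2 fold change of 2.68 (edgeR adjusted p = 0.108), and Igfbp6, which binds insulin-like growth factor, 4.40 (0.11). Ezr, which links membranes to actin and is made by lymphocytes too, had a log2 fold change of -0.17 (0.514). Rarres2, which encodes chemerin, had 0.27 (0.719) and Cybrd1, a membrane iron reductase, 0.01 (0.991). Calb2, calretinin, a mesothelial marker in humans, had 0 counts in all PM2.5 spleens and 4 counts over the air spleens.

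Relatives of the 8 genes by sequence family had smaller median values. Of 15 listed relatives, 14 were in the table and 7 were tested in spleen, 4 with a higher and 3 with a lower mean and 0 called (median log2 fold change 1.22; 2 higher and 1 lower at an unadjusted p under 0.05). The bladder uroplakins Upk2 and Upk3a had 2 and 0 counts over the PM2.5 spleens and 0 and 0 over the air spleens. Gpm6b, the closest relative of Gpm6a in the list, had a log2 fold change of -0.19 (edgeR adjusted p = 0.683). Lrrn3 and Lrrn1, relatives of Lrrn4, had log2 fold changes of 1.22 (0.15) and 2.36 (0.165). Muc1 had 1.43 (0.364).

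Regulators of serosal and splenic mesenchyme were listed as well. Of 12 tested in spleen, 11 had a higher and 1 a lower mean, with a median log2 fold change of 1.26. In edgeR 0 passed, and 9 had an unadjusted p under 0.05, all higher. Tcf21, a factor of splenic and serosal mesenchyme, averaged 20.2 ± 10.5 CPM in PM2.5 and 2.69 ± 2.06 CPM in air spleens (SD, n = 4 each; edgeR adjusted p = 0.0941). Ccn1 and Ccn2, secreted matrix proteins known as targets of Yap1 and TEAD factors, had log2 fold changes of 2.17 (edgeR adjusted p = 0.108) and 1.31 (0.118). Nr2f2, a nuclear receptor of mesenchyme and veins, had 0.88 (0.121). Yap1 itself had -0.03 (edgeR adjusted p = 0.968) and Wwtr1 0.38 (0.642). These factors are made by stromal cells other than mesothelium too.

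Other tissues were described over the same libraries by the mean log2(CPM + 1) of each list, as its distance from the mean of the air spleens. For the 8 genes that distance was 1.60, 2.10, 3.40 and 4.32 in PM2.5 spleens 1 to 4, against 0.07, 0.18, -0.05 and -0.21 in air spleens 1 to 4. Matrix genes stood at 0.25, 0.54, 0.80 and 1.79 in PM2.5 and smooth muscle genes at 0.34, 0.17, 0.96 and 1.90. Both were highest in replicate 4, where the 8 genes were highest, and their air libraries reached 0.38 and 0.53. Of 20 matrix genes tested 20 had a higher mean in PM2.5 (median log2 fold change 0.87, 11 at an unadjusted p under 0.05) and of 10 smooth muscle genes 9 (median 0.94, 5 at an unadjusted p under 0.05), with 0 called in edgeR. Their part in the mesothelial values was not tested.

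Fat genes followed another order. Their distance was -1.43, 1.77, 0.49 and 3.06 in PM2.5 spleens 1 to 4, against -0.72, 2.19, -0.13 and -1.34 in air spleens 1 to 4. Adipoq, the fat cell hormone adiponectin, had 9, 191, 78 and 740 counts in PM2.5 spleens 1 to 4 and 8, 315, 31 and 9 in air spleens 1 to 4. Air replicate 2 held the second-highest fat level of the 8 spleens, and its summed mesothelial level was 7.06 CPM. PM2.5 replicate 1 held the lowest fat level, with a summed mesothelial level of 46.1 CPM. PM2.5 replicate 4 held the highest level of both lists. The part of fat in the mesothelial values was not tested. All 8 tested fat genes had a higher mean in PM2.5 (median log2 fold change 1.44), with 0 called and 0 at an unadjusted p under 0.05.

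Of 10 genes of the exocrine pancreas 1 was tested in spleen, Cela1, with a log2 fold change of 1.61 (edgeR adjusted p = 0.267). Cela1 was higher in macrophage libraries than in spleens, so it does not mark pancreas alone here. With all 18 libraries scaled together it ran from 58.9 to 127 CPM in macrophages and from 0.473 to 10.9 CPM in spleens. Erythroid genes were highest in PM2.5 replicate 2, at 5.57, where the 8 genes stood at 2.10. They were at 0.41, 2.34 and 3.69 in PM2.5 replicates 1, 3 and 4, and at 0.95 or less in the air spleens. Of 10 erythroid genes tested 10 had a higher mean in PM2.5, with 0 called in edgeR. Their median log2 fold change was 4.44, near the 4.89 of the 8 genes, and 10 had an unadjusted p under 0.05. Liver genes were highest in air replicates 4 and 3, at 1.29 and 0.66, and between -1.20 and -0.54 in PM2.5 spleens. Without both of those air libraries 0 of the 8 genes passed in edgeR. Genes of gut epithelium stood at 0.47 in PM2.5 replicate 1 and between 0.14 and 0.28 in the other PM2.5 spleens. Of the stomach genes in that list, Tff1 and Gkn1 had 0 counts in all PM2.5 spleens, whereas the surface mucin Muc5ac had 17 counts in PM2.5 replicate 1, 2 in replicate 3 and at most 1 in any other spleen library. Tspan8, a tetraspanin of gut epithelium, had the smallest p of the list, with a log2 fold change of 3.75 (edgeR adjusted p = 0.126), and its highest library was PM2.5 replicate 2. Endothelial genes stood between 0.26 and 1.04 in PM2.5 and red pulp macrophage genes between 0.49 and 1.05, against at most 0.13 and 0.60 in air. Of 12 endothelial genes tested 10 had a higher and 2 a lower mean in PM2.5 (median log2 fold change 0.72, 6 higher at an unadjusted p under 0.05). Of 10 red pulp macrophage genes 9 had a higher and 1 a lower mean (median 0.65, 7 higher at an unadjusted p under 0.05). In edgeR 0 were called in either list. T cell genes stood between -0.55 and -0.14 and B cell genes between -0.47 and 0.00 in PM2.5 spleens, against -0.16 to 0.28 and -0.13 to 0.15 in air spleens. Nerve genes stood between -0.32 and -0.05 in PM2.5 and between -0.06 and 0.10 in air spleens. The part of these lists in the mesothelial values was not tested.

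**Figure D4:**
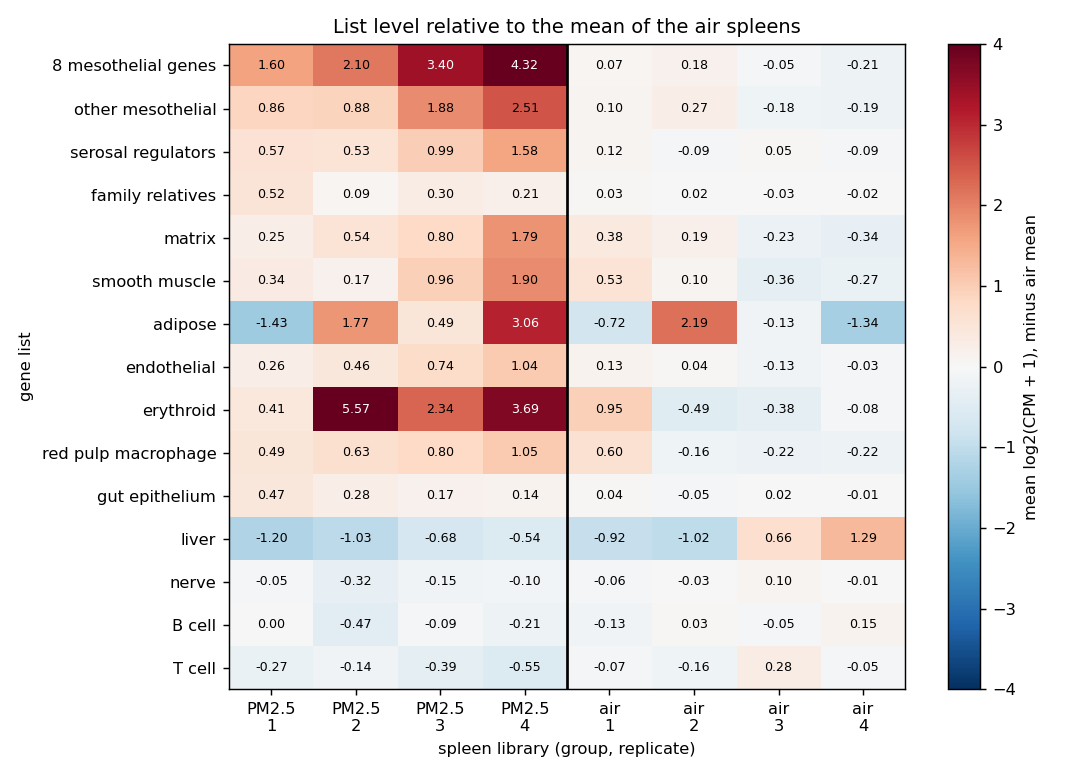
Each cell gives the mean log2(CPM + 1) of a gene list in 1 spleen library, minus the mean of the 4 air spleens; columns are libraries, PM2.5 on the left. The 8 mesothelial genes reach 4.32 in PM2.5 replicate 4, and fat genes reach 3.06 there and 2.19 in air replicate 2.

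The genes most like the 8 were sought by Pearson's r with the mean of their scaled log2(CPM + 1) over the 8 spleen libraries. The 10 highest of 15032 genes with a mean of at least 1 CPM were Zfp185, Gpc3, Kcnmb1, Fmo2, Camk2n1, Ptgs1, Lrp1, Cobl, Cdh3 and Gas6, with r between 0.981 and 0.994. The points share the group difference, and after the group means were subtracted r lay between 0.936 for Lrp1 and 0.992 for Zfp185. Because the 10 genes were chosen for high r over these same libraries, both sets of values are a description only. Gpc3, the heparan sulfate proteoglycan glypican 3, averaged 18.1 CPM in PM2.5 and 0.481 CPM in air spleens. Fmo2, a flavin monooxygenase, averaged 28.9 CPM in PM2.5 and 0.485 CPM in air spleens (log2 fold change 5.88, SE 0.82, edgeR adjusted p = 0.0613). Zfp185, an actin-binding protein, averaged 5.09 CPM in PM2.5 and 0.103 CPM in air spleens. The list also held genes of broad use whose change was smaller. Ptgs1, the cyclooxygenase that is made constitutively, averaged 19.9 CPM in PM2.5 and 11.7 CPM in air spleens, and Gas6, a ligand of receptors for dying cells, 66.8 and 26.5 CPM in PM2.5 and air spleens. Among the 8 genes, r with the other 7 after subtracting group means was between 0.847 and 0.98 for all but Krt19, which had 0.135. Such values were not particular to mesothelial genes. With the mean of the 8, Kdr of the endothelial list had 0.969 and Col6a2 of the matrix list 0.953 after that subtraction. Others of those lists did not, such as Pecam1 (-0.421) and Postn (0.169).

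Macrophage preparations held few transcripts of these genes. The summed level of the 8 was between 2.001 and 4.24 CPM in PM2.5 macrophages and between 0.729 and 2.40 CPM in air macrophages, on the scale of that experiment. Upk1b, Upk3b and Muc16 had at most 3 counts in each of the 10 libraries, the limit that a count of 0 allows. Krt19 had 6 counts in PM2.5 replicate 4, 1 in air replicate 2 and 0 elsewhere, and Lrrn4 at most 7 in any library. Msln had 16, 5, 7, 4 and 4 counts in PM2.5 macrophages 1 to 5, against 0, 3, 4, 1 and 3 in air macrophages 1 to 5. Msln averaged 0.322 ± 0.32 CPM in PM2.5 and 0.103 ± 0.0754 CPM in air macrophages (SD, n = 5 each), and the groups overlapped. These 6 genes did not pass the filter on low counts in macrophages, so a difference between the groups was not tested there, and 2 genes, Gpm6a and Wt1, were tested.

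Gpm6a had 50, 41, 43, 60 and 60 counts in PM2.5 macrophages 1 to 5, against 6, 7, 19, 31 and 5 in air macrophages 1 to 5. On the CPM scale the groups overlapped through air replicate 4, at 1.46 CPM, which lay above PM2.5 replicates 2 and 3. Gpm6a averaged 2.10 ± 0.75 CPM in PM2.5 and 0.599 ± 0.51 CPM in air macrophages (SD, n = 5 each; log2 fold change 1.78, SE 0.456, edgeR adjusted p = 0.267). Among all 15696 genes tested in macrophages 0% passed, 6.24% were higher in PM2.5 at an unadjusted p under 0.05, and 51.4% had a log2 fold change above 0. DESeq2, which called 1.12% of all genes, called Gpm6a (adjusted p = 0.0179). The log2 fold change was 1.007 with PM2.5 replicate 1 counted as air, as its treatment tag reads (edgeR adjusted p = 0.679). Upk3b had 3 counts over the PM2.5 and 2 over the air macrophages. Nerve cells make Gpm6a too, and of the nerve genes 4 of 10 were tested and all 4 had a higher mean in PM2.5 (median log2 fold change 0.75, 2 at an unadjusted p under 0.05, 0 called in edgeR). Tubb3, a neuronal tubulin, had 1.28 (edgeR adjusted p = 0.287). Their part in the Gpm6a value was not tested.

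Wt1 had 6, 5, 21, 4 and 8 counts in PM2.5 macrophages 1 to 5, against 11, 14, 29, 12 and 9 in air macrophages 1 to 5. The groups overlapped through PM2.5 replicate 3. Wt1 averaged 0.321 ± 0.181 CPM in PM2.5 and 0.647 ± 0.24 CPM in air macrophages (SD, n = 5 each; log2 fold change -0.96, SE 0.391, edgeR adjusted p = 0.402), the opposite sign to that in spleen. Of the further list of mesothelial genes, 8 of 20 were tested in macrophages, 3 with a higher and 5 with a lower mean in PM2.5, and their median was -0.04, with 0 called in edgeR and 0 at an unadjusted p under 0.05. Cdh3 had 0 counts in all 10 macrophage libraries.

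Whether the change in spleen differed from that in macrophages was tested in a joint fit of all 18 libraries. Of the 8 genes 1 passed, Wt1, while 1.46% of 17779 tested genes passed. At an unadjusted p under 0.05 with the larger value in spleen there were 4 of the 8 and 10.3% of all genes. Genes that failed the filter in macrophages entered this fit mainly through spleen libraries, above all those of PM2.5. That favours a larger value in spleen, so these counts over the 8 genes are a description too. The Wt1 log2 fold change was 3.65 larger in spleen than in macrophages (SE 0.633, edgeR adjusted p = 0.0181). For Lrrn4 the difference was 5.44 (SE 1.59, edgeR adjusted p = 0.074), and DESeq2, which called 5.87% of all genes and 3.66% with the larger value in spleen, called it together with Wt1 (adjusted p = 0.0188 for Lrrn4). The Wt1 call was lost without air spleens 3 and 4 (3.71, edgeR adjusted p = 0.102) and in limma-voom (3.40, adjusted p = 0.0973). For Gpm6a the difference was 2.14 (SE 0.976, edgeR adjusted p = 0.223) and for Msln 3.07 (SE 1.41, 0.225). For Muc16, Upk1b, Upk3b and Krt19 the approximate 95% intervals held 0, and that of Upk3b, for instance, ran from -1.70 to 13.3 on the log2 scale. These wide intervals come with macrophage groups at or near 0 counts. Of the further mesothelial genes 3 of 17 tested passed here in edgeR. They were Aldh1a2, which makes retinoic acid (difference 4.23, edgeR adjusted p = 0.0222), Ptgis, prostacyclin synthase (3.31, 0.0282), and Krt7, a simple-epithelial keratin (2.75, 0.029). All 3 were also present in macrophage libraries. With all 18 libraries scaled together, Ptgis ran from 63.8 to 129 CPM in macrophages and from 0.165 to 17.9 CPM in spleens. Aldh1a2 ran from 0.645 to 2.06 CPM in macrophages and Krt7 from 1.99 to 5.36 CPM. In air spleens they reached at most 0.662 and 3.36 CPM. Tcf21 (3.25, edgeR adjusted p = 0.0183) and Ccn1 (2.65, 0.029) passed among the 12 regulators and Lrrn3 (1.79, 0.0183) among the 7 relatives. The material, the experiment and any stay in filtered air changed together and cannot be told apart in this comparison.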

How the data were processed

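The authors deposited a table of raw, unscaled read counts per Ensembl gene for 8 spleen and 10 macrophage libraries. Per the submitters' processing notes, HTSeq 0.10.0 and FastQC 0.10.1 were used with builds named mm10 and GRCm38. The kits were Qiagen RNeasy for RNA and NEBNext Ultra II for libraries, per the labels. Aligner, annotation release and strand setting were not stated in those sources, so reads of antisense partners could be counted together. Of 55414 identifiers, 52081 matched GENCODE M21, which gave symbols, coordinates and exonic lengths, and 3333 with 0.343% of the counts did not.

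Groups came from the titles. No library was a copy of another in its group. Genes were kept by filterByExpr (minimum count 10, minimum total 15), scaled with TMM and tested with edgeR 4.0.16 (quasi-likelihood, two-sided, R 4.3.3), with Benjamini-Hochberg adjustment over all tested genes (threshold 0.05). Spleen and macrophage libraries were fitted separately, and the difference of the effects in a joint fit. DESeq2 1.42.0 and limma-voom (limma 3.58.1) were alternatives, with other scalings and filters, a robust fit, a replicate block, the joint fit, 1 relabelled library and left-out libraries. The steps were tested on simulated data. The genes, the lists and the tests were chosen with earlier results of these data known. Named were the 8 genes, the 10 genes most like them, and up to 4 genes with the smallest p per list; further names were chosen after their values were seen. Titles call each library a bio rep, a biological replicate, but the labels do not say whether libraries are separate animals. The p-values therefore measure the spread between these libraries. Libraries were not paired by replicate number in the main fits. Deviations of same-numbered libraries correlated between -0.137 and 0.0589 in spleen and between -0.143 and 0.284 in macrophages. Different-numbered libraries reached 0.0874 in spleen and 0.168 in macrophages. Macrophage replicates 4 and 5 lay above that, at 0.284 and 0.254, so this check cannot exclude a pairing. Limits from counts cover counting error only.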

Additional observations from a re-analysis of the deposited data

Results flagged for a closer look

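The difference between the PM2.5 effects on Wt1 in spleen and in macrophages, 3.65 on the log2 scale, passed the test of the difference (edgeR adjusted p = 0.0181). In 7 cases a single library stood far from the others of its group, among 32 sets of values examined. The rule flags about 1 in 20 by chance only where values follow a normal curve. A library with counts beside others all at 0 is always flagged, as in the Upk1b, Muc16 and Krt19 cases below. That rate therefore does not apply here. In air spleens, replicate 2 stood apart with 0.428 CPM of Muc16 and 0.749 CPM of Lrrn4. In macrophages, PM2.5 replicate 1 stood apart with 0.893 CPM of Msln, which is 16 counts, and PM2.5 replicate 4 with 0.291 CPM of Krt19, which is 6 counts. The other 3 cases were each 1 count in 1 air macrophage library: 0.0471 CPM of Upk1b in replicate 4, 0.055 CPM of Muc16 in replicate 5 and 0.0553 CPM of Krt19 in replicate 2.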

How the results depend on the processing

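The log2 fold changes of the 8 genes in spleen were above 0 in all alternatives that gave a value, and those of Gpm6a and Wt1 in macrophages kept their signs. Calls depended on the setting. In spleen 0 of the 8 genes passed in edgeR, 8 with DESeq2, 8 with no filter, 1 when genes needed 1 CPM throughout a group, and 8 in the joint fit of all libraries. Over the omission of each library the count lay between 0 and 8 (8 without PM2.5 replicate 1). Among all spleen genes 2 passed, 1 with DESeq2's size factors, 1 with limma-voom, 830 with DESeq2, 461 with no filter, 12 with the CPM filter and 1050 in the joint fit. The count was 0 without PM2.5 spleens 2 and 4, 0 without air spleens 3 and 4, and between 0 and 219 over single omissions (219 without air replicate 2). In macrophages 0 genes passed, 175 with DESeq2, 1 of them among the 8, 1 with no filter, and between 0 and 17 over single omissions (17 without air replicate 4). For the difference of the effects 259 genes passed, 1044 with DESeq2, 3 with limma-voom, 87 with PM2.5 macrophage 1 counted as air, 48 without PM2.5 spleens 2 and 4, 9 without air spleens 3 and 4, and between 68 and 1317 over single omissions (68 without air spleen 3, 1317 without air spleen 2). Of the 8 genes 1 passed there, 2 with DESeq2, 0 with limma-voom, 0 without air spleens 3 and 4, and 1 or 2 over single omissions. With a replicate block, 3 genes passed in spleen (0 of the 8), 0 in macrophages and 91 for the difference (1 of the 8). The causes were not tested. Depth limits the macrophage libraries, where 3 counts are between 0.0886 and 0.166 CPM.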
